A study of Mus musculus with 2 samples.

Results

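Cytosolic ribosomal protein genes were taken as the protein-coding genes of GENCODE M21 (mm10) whose symbols begin with Rpl or Rps, without the kinases named Rps6k and without symbols that hold -ps. The rule gave 86 of 21938 protein-coding genes on chromosomes 1 to 19, X and Y. Of these, 46 encode canonical proteins of the large subunit, 31 encode canonical proteins of the small subunit, and 9 are paralogs or other genes that share the prefix (Rpl10l, Rpl22l1, Rpl36al, Rpl39l, Rpl3l, Rpl7l1, Rps19bp1, Rps27l and Rps27rt). Fau and Rack1 encode ribosomal proteins under other symbols and are not among the 86.

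The measurement was CUT&Tag for SRCAP, the catalytic subunit of a remodeling complex that exchanges H2A for the histone variant H2A.Z. SYAT mouse embryonic stem cells derive from 1 CGR8 clone in which both Srcap alleles carry YPet, a yellow fluorescent protein, and an auxin-inducible degron, and they also express OsTir1, the plant receptor for auxin, from a lentiviral EF1a promoter. Both samples were SYAT cells in serum and LIF with auxinole, which blocks basal degradation of SRCAP (the control condition). An anti-GFP antibody directed the transposase to YPet in 200000 cells per sample for 1 h. The samples are 2 replicates of 1 group, so no groups were compared. The study states in general that its replicates were cultured and treated separately.

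Ribosomal proteins and ribosomal RNA form the large subunit, which joins amino acids, and the small subunit, which reads the mRNA. Because each ribosome needs nearly every protein once, their genes are transcribed strongly and in balance in growing cells such as embryonic stem cells. Transcription of these genes typically starts at a C within a stretch of pyrimidines, and the resulting 5′ terminal oligopyrimidine (TOP) tract couples their translation to growth signals.

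Ribosomal protein genes carried a SRCAP-YPet peak at their promoters at shares below those of all protein-coding genes, with intervals that included these. A gene was called bound in a replicate if a peak overlapped the bases between 1000 bp before and 500 bp after any of its annotated transcription start sites (TSSs). In replicate 1, 9 of the 86 genes were bound, 10.5% (95% Wilson interval 5.60 to 18.7%), against 15.7% of all protein-coding genes. In replicate 2, 22 were bound, 25.6% (17.5 to 35.7%), against 30.4% of all protein-coding genes. In both replicates 6 were bound, 6.98% (3.24 to 14.4%), against 12.0% of all protein-coding genes. Each of the 3 shares was below its background, and each interval included it. The background holds all protein-coding genes, whether or not they are transcribed in these cells, and was not matched for expression. With 12958 peaks against 6158, replicate 2 had the longer list, and the depth of either library is unknown. Cut to 6158 peaks by score, replicate 2 had 12 bound ribosomal protein genes, 14.0%, against 19.2% of all genes. Ribosomal protein genes had a median of 6 annotated TSSs against 3 for all protein-coding genes, and their windows covered a median of 2646 bp against 3002 bp.

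The 6 genes bound in both replicates were Rpl15, Rps2, Rps13, Rps25, Rps27a and the paralog Rps27l. Bound in replicate 1 alone were Rpl10, Rpl21 and Rps10. Bound in replicate 2 alone were 16 genes, among them Rpl5, Rpl7, Rpl18, Rpl26, Rpl27, Rpl30, Rpl37a, Rpl38, Rps6, Rps14, Rps19, Rps23 and Rps29, and the paralogs Rpl7l1 and Rpl10l. The remaining 61 genes (70.9%, 60.6 to 79.5%) were bound in neither, against 66.0% of all protein-coding genes. Genes bound in 1 replicate had no close peak in the other. The nearest replicate 1 peak to the 16 genes of replicate 2 lay between 15427 bp (Rpl38) and 368897 bp (Rpl10l) from the TSS. The nearest replicate 2 peak to the 3 genes of replicate 1 lay between 15652 bp (Rpl10) and 115814 bp (Rpl21).

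Of the 9 ribosomal protein genes bound in replicate 1, 6 were also bound in replicate 2 (66.7%, 35.4 to 87.9%), beside 76.7% of the 3445 protein-coding genes bound in replicate 1. Of the 22 bound in replicate 2, 6 were also bound in replicate 1 (27.3%, 13.2 to 48.2%), beside 39.7% of 6660. Both shares lay below those of all genes, within wide intervals.

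The share bound was lower for the large subunit than for the small subunit, but the intervals overlapped and the difference was not tested. Among the 46 large-subunit genes, 3 were bound in replicate 1 (6.52%, 2.24 to 17.5%), 9 in replicate 2 (19.6%, 10.7 to 33.2%) and 1, Rpl15, in both (2.17%, 0.385 to 11.3%). Among the 31 small-subunit genes, 5 were bound in replicate 1 (16.1%, 7.09 to 32.6%), 10 in replicate 2 (32.3%, 18.6 to 49.9%) and 4 in both (12.9%, 5.13 to 28.9%). The subunit intervals included the background shares of 15.7% in replicate 1 and 30.4% in replicate 2. In both replicates the small-subunit interval included the 12.0% of all genes, and the large-subunit interval, which rests on 1 gene, ended at 11.3%. Of the 9 paralogs and other genes, 1 was bound in replicate 1 and 3 in replicate 2. Neither Fau nor Rack1 had a promoter peak in either replicate.

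**Figure D1:**
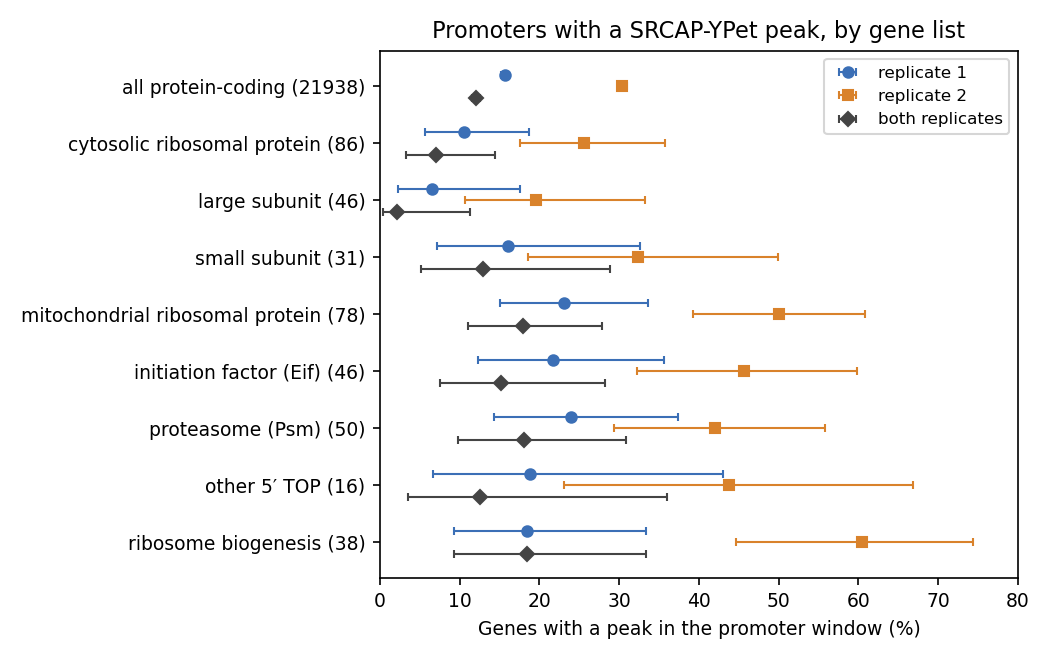
Percentage of genes in each list (number of genes in parentheses) with a peak in the promoter window in replicate 1, replicate 2 and both replicates. Bars are 95% Wilson intervals over genes; cytosolic ribosomal protein genes, at 10.5, 25.6 and 6.98%, lie left of the mitochondrial ribosomal protein genes, at 23.1, 50.0 and 17.9%.

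Other genes of the protein synthesis and turnover machinery were bound more often in each replicate. Of 78 genes for mitochondrial ribosomal proteins (Mrpl and Mrps), which build the separate ribosome of mitochondria, 18 were bound in replicate 1 (23.1%, 15.1 to 33.6%), 39 in replicate 2 (50.0%, 39.2 to 60.8%) and 14 in both (17.9%, 11.0 to 27.9%). The replicate 2 interval of the cytosolic genes, which ended at 35.7%, did not reach that of the mitochondrial genes, whereas the intervals overlapped in replicate 1 and in both replicates. The median window was 2109.5 bp for mitochondrial ribosomal protein genes, smaller than the 2646 bp of the cytosolic genes, but larger for the other lists (4397 bp for biogenesis factors, 4537.5 bp for TOP genes, 3122 bp for Eif and 3170 bp for Psm genes). Of 38 ribosome biogenesis factors, such as the nucleolar proteins fibrillarin and nucleolin, 7, 23 and 7 were bound in replicate 1, replicate 2 and both (18.4, 60.5 and 18.4%). Of 16 other genes with 5′ TOP mRNAs, such as those for elongation factors, 3, 7 and 2 were bound (18.8, 43.8 and 12.5%). Of 46 initiation factor genes (Eif), 10, 21 and 7 were bound, and of 50 proteasome genes (Psm), 12, 21 and 9. These differences were not tested, and genes of 1 library are not independent replicates.

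Rps13, a small-subunit protein, had the best-ranked peak in replicate 2 among the genes bound in both replicates, and in replicate 1 it tied with Rps2. In replicate 1 its peak was chr7:116334242-116334566 with a score of 53, at or above 82.5% of the peaks of that list. In replicate 2 it was chr7:116334217-116334571 with a score of 88, at or above 92.1% of that list. The score is the −log10 of the peak caller's q-value times 10, cut to a whole number, and it depends on depth, so it ranks peaks within a list. Relative to the reference TSS (the start of the main annotated coding transcript), the peaks ran from −371 to −47 bp and from −376 to −22 bp. Both thus ended just upstream of the TSS, and the 325 bp of replicate 1 lay entirely within the replicate 2 peak. A noncoding antisense gene, Gm44777, starts within this interval, and its TSS was the closest annotated one to both midpoints, at 142 and 132 bp.

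At Rps27l and Rps27a the replicates differed in how far the peak reached. Rps27l encodes a paralog of Rps27 and is known as a target of p53. Its peak was chr9:66945643-66945957 in replicate 1 with a score of 40, from −443 to −129 bp, and chr9:66945595-66946507 in replicate 2 with a score of 72, from −491 to 421 bp. At 913 bp, the latter was the widest peak of any ribosomal protein gene. Rps27a encodes ubiquitin fused to a small-subunit protein. Its peak was chr11:29548236-29548493 in replicate 1 with a score of 35, from −384 to −127 bp, and chr11:29547918-29548487 in replicate 2 with a score of 72, from −378 to 191 bp. In both genes the replicate 1 peak lay upstream of the TSS and the replicate 2 peak overlapped it and extended across the TSS.

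The sequence that both replicates share at these genes is shown because it is where peaks recurred (GRCm38, read along the gene's strand). Each run is the shared interval, cut to its central 300 bases where longer. Capitals mark matches on either strand to CGGAAG (the core bound by ETS factors) or GGGCGG (the GC box bound by SP1).
Rps13 (chr7:116334254-116334553, minus strand): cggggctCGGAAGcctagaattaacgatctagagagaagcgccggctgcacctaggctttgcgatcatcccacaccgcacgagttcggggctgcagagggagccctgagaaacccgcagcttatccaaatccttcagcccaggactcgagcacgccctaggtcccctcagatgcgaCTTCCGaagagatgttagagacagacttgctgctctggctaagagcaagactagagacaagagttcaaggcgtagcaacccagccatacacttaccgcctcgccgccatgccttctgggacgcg
Rps27l (chr9:66945650-66945949, plus strand): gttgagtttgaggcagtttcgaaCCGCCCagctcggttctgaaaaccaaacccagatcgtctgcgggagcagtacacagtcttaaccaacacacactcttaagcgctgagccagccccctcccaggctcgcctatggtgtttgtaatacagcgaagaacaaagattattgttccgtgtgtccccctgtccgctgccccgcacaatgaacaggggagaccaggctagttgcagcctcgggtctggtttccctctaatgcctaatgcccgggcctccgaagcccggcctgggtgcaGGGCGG
Rps27a (chr11:29548236-29548487, minus strand): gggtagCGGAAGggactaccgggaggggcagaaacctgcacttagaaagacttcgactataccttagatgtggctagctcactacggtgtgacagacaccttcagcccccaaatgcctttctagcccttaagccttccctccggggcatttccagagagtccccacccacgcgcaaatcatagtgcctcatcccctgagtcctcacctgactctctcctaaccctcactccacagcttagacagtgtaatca
The Rps13 run spans −358 to −59 bp, holds 20 CpG and is 58.0% G or C. The Rps27l run spans −436 to −137 bp, with 16 CpG and 57.7% G or C. The Rps27a run spans −378 to −127 bp, with 7 CpG and 54.4% G or C, and lies in the neighbouring gene Clhc1.

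At Rps25, Rpl15 and Rps2 the TSS of the ribosomal protein was not the only start site near the peak. Rps25 encodes a small-subunit protein known for its part in translation from internal entry sites. Its peaks were chr9:44407121-44407561 in replicate 1 (score 48) and chr9:44407311-44407561 in replicate 2 (score 52), which end at the same base. They ran from −18 to 422 bp and from 172 to 422 bp relative to the reference TSS, which is an outlying start. The start site with the most Rps25 transcripts lies 558 bp downstream of it, and relative to that site the peaks ran from −576 to −136 bp and from −386 to −136 bp. The TSS of Trappc4, a trafficking complex subunit transcribed in the opposite direction, was 0 and 74 bp from the midpoints.

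Rpl15, a large-subunit protein, shares its promoter with Nkiras1 on the opposite strand. Its peak was chr14:18271113-18271364 in replicate 1, from −297 to −46 bp with a score of 25. In replicate 2 it was chr14:18270808-18271315, from −248 to 259 bp with a score of 43. The replicate 1 midpoint was 1 bp from the nearest Nkiras1 TSS and the replicate 2 midpoint was 5 bp from that of Rpl15.

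Rps2, a small-subunit protein near the mRNA entry, was the exception in position. Its peaks lay inside the gene at chr17:24720724-24721162 in replicate 1, from 661 to 1099 bp with a score of 53, and at chr17:24720714-24720994 in replicate 2, from 651 to 931 bp with a score of 16. The intervals shared 271 bp, which overlap the snoRNA gene Snora64 within Rps2, and they contain the TSS of another Rps2 transcript. The replicate 1 score was at or above 82.5% of its list and the replicate 2 score at or above 10.2%. With the reference TSS alone, Rps2 was not bound in either replicate.

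**Figure D2:**
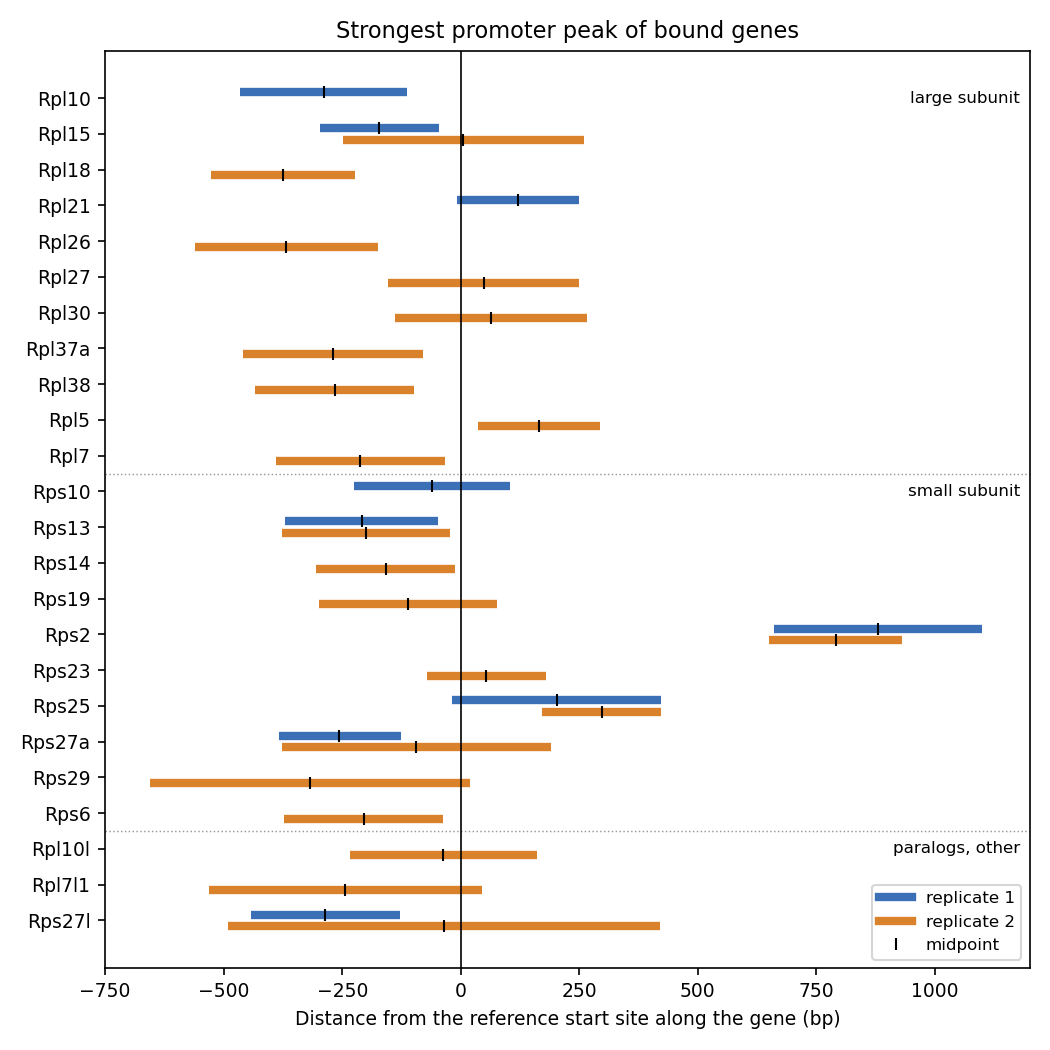
Strongest promoter peak of 24 of the 25 bound genes along the distance from the reference TSS in bp, with replicate 1 above replicate 2 and a tick at the midpoint. The midpoint lies left of 0 in 6 of 9 genes in replicate 1 and 14 of the 21 shown in replicate 2, and Rps2 alone lies beyond 500 bp downstream.

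Small-subunit genes bound in 1 replicate differed in score and in position. The peak of Rps29, a small zinc-binding protein, scored 56 and ran from −656 to 19 bp, with the noncoding gene Gm47295 starting 13 bp from its midpoint. The peak of Rps14, whose loss causes the anaemia of the human 5q- syndrome, scored 48 and ended at −12 bp. Rps6, the substrate of the S6 kinases, had a peak with a score of 36 that ended at −37 bp. Rps23, a protein of the decoding centre, had a score of 41, and Rps19, the gene most often mutated in Diamond-Blackfan anaemia, had a score of 20, and both peaks covered the TSS. In replicate 1, Rps10 scored 33 and its peak covered the TSS.

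Large-subunit genes bound in replicate 2 had scores from 24 (Rpl5) to 58 (Rpl7). The Rpl7 peak, chr1:16104695-16105052, ended at −33 bp. A weaker second peak, with a score of 22, lay from −1160 to −863 bp, where its midpoint was 100 bp from the TSS of Rdh10. The peaks of Rpl37a, Rpl38, Rpl26 and Rpl18 lay wholly upstream and ended at −79, −99, −175 and −224 bp, with scores of 26, 36, 28 and 34. Rpl38 is known for its role in translation of Hox mRNAs. At Rpl18, the TSS of Sphk2 on the opposite strand lay 125 bp from the midpoint, nearer than the TSS of Rpl18. Rpl27 (score 42) and Rpl30 (score 30) had peaks that covered the TSS. Rpl5, which assembles with Rpl11 into the particle that restrains Mdm2, had a peak from 37 to 294 bp. In replicate 1, the X-linked Rpl10, which joins the subunit late in assembly, had a score of 34 and a peak from −466 to −113 bp, and Rpl21 had a score of 18 and a peak from −7 to 249 bp.

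Of the paralogs, Rpl7l1 had a peak of 576 bp with a score of 66 that ran from −531 to 44 bp. Rpl10l, an autosomal copy of Rpl10 known for expression in testis, had a peak with a score of 32 from −233 to 160 bp. Both were bound in replicate 2 alone.

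Scores at bound ribosomal protein genes were near those of other bound genes. The median was 35 in replicate 1 (range 18 to 53) and 41.5 in replicate 2, a mean of 38.2 ± 4.6 (SD, n = 2), against 36 and 44 for the strongest promoter peaks of all bound protein-coding genes. A score of at least 50 was reached by 2 of 9 genes in replicate 1 (22.2%) and 8 of 22 in replicate 2 (36.4%), against 26.8% and 43.0% of all bound genes. Small-subunit medians were 48 and 50 and large-subunit medians 25 and 34. Median widths were 325 and 379 bp, against 356 and 421 bp.

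**Figure D3:**
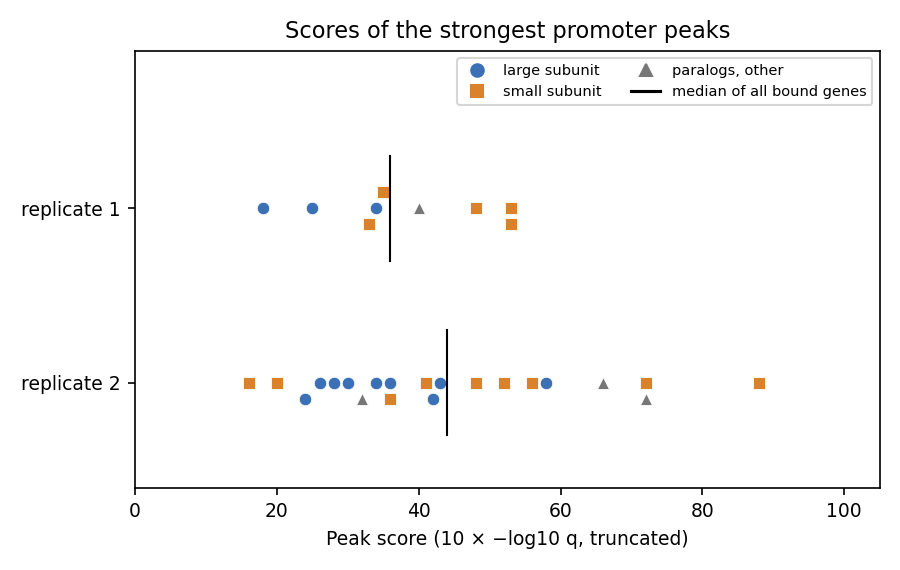
Score of the strongest promoter peak of bound ribosomal protein genes in replicate 1 (9 of 9 genes) and replicate 2 (21 of 22 genes); vertical lines are the medians of all bound protein-coding genes, 36 and 44. The small-subunit gene Rps13 has a score of 53 in replicate 1 and 88 in replicate 2.

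Over all bound genes of each replicate, the median peak position of ribosomal protein genes was further upstream than that of protein-coding genes as a whole. The median midpoint of the strongest promoter peak was at −172 bp in replicate 1 and −134.5 bp in replicate 2 (mean −153 ± 26.5 bp, SD, n = 2). For all bound protein-coding genes it was at 12 and 24.5 bp (mean 18.2 ± 8.84 bp). The midpoint was upstream of the TSS in 6 of 9 genes in replicate 1 (66.7%, 35.4 to 87.9%) and 15 of 22 in replicate 2 (68.2%, 47.3 to 83.6%), against 48.0 and 47.1%. The replicate 1 interval included the share of all genes, and the replicate 2 interval began next to it. The difference in median midpoint from all genes had the same direction in both replicates and exceeded the spread between them, which does not cover sampling over so few genes, and no test was made with 2 samples. It did not hold as clearly for the 6 genes bound in both replicates, whose median midpoints were at −190.5 and −15 bp (mean −103 ± 124 bp, SD, n = 2), with 4 of 6 peaks wholly upstream in replicate 1 and 1 of 6 in replicate 2.

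In 5 of 9 genes in replicate 1 (55.6%, 26.7 to 81.1%) and 9 of 22 in replicate 2 (40.9%, 23.3 to 61.3%) the whole peak lay upstream of the TSS, against 29.4% and 26.0% of all bound genes. Both intervals included the values of all genes. The gap between the downstream edge of these peaks and the TSS was 12 to 224 bp in replicate 2 (median 79 bp) and 46 to 129 bp in replicate 1 (median 113 bp). The peak covered the TSS in 3 of 9 and 10 of 22 genes (33.3 and 45.5%), against 44.0 and 50.3%. Mitochondrial ribosomal protein genes had median midpoints at 54.5 and 16 bp, and their peaks lay wholly upstream in 3 of 18 and 7 of 39 genes.

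Coverage was computed from the same peaks of 9 and 22 genes, so it describes their placement again and is not separate support for it. The share of bound ribosomal protein genes covered by a peak was highest between −220 and −130 bp in replicate 1 (66.7%) and at −230 bp and between −130 and −100 bp in replicate 2 (72.7%), with 63.6 to 68.2% in between. In replicate 1 it was 11.1% between −40 and −20 bp and 33.3% at the TSS, and in replicate 2 it was 45.5% at the TSS. For the 6 genes bound in both replicates it was highest between −290 and −130 bp in replicate 1 (66.7%), with 16.7% at the TSS. In replicate 2 these genes reached their highest share (66.7%) on both sides of the TSS, at −240 and at 190 bp, with 50.0% at the TSS. For all bound protein-coding genes the share was highest at 60 bp in replicate 1 (46.3%) and 50 bp in replicate 2 (51.2%).

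**Figure D4:**
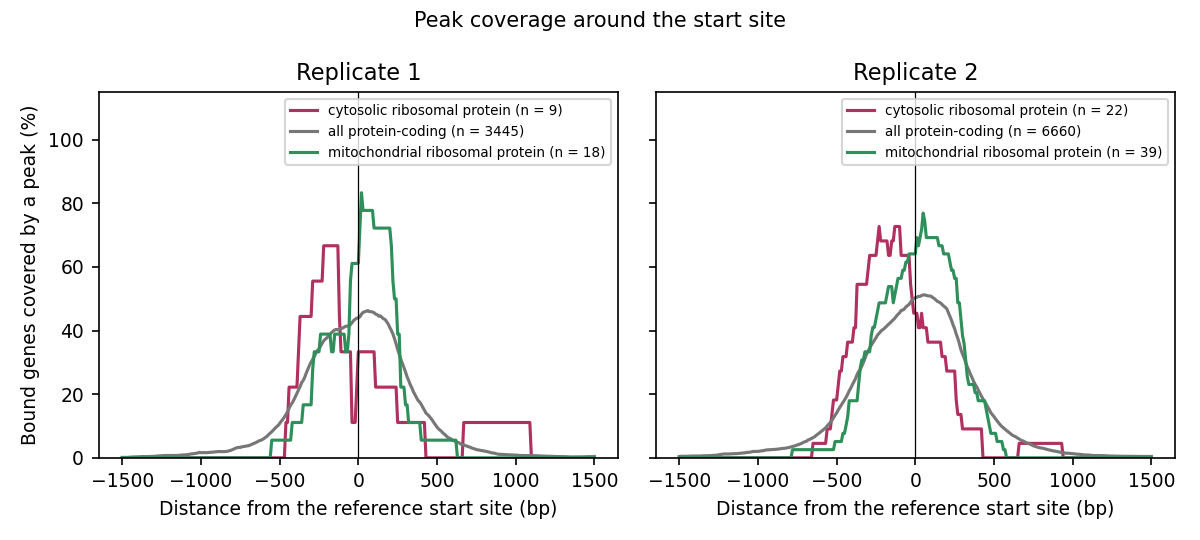
Percentage of bound genes whose strongest promoter peak covers each position, by distance from the reference TSS in bp, in replicate 1 (left) and replicate 2 (right). Cytosolic ribosomal protein genes are highest upstream of the TSS (66.7 and 72.7%), all protein-coding genes just downstream (46.3 and 51.2%).

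Annotated 5′ ends of these genes vary, and the size of the displacement depended on the site used. With the start site at which most transcripts of a gene begin within 50 bp, a choice made after the data were seen, the median midpoint moved to −286 and −295 bp, against −88 and −79 bp for all bound genes. On that measure 8 of 9 and 15 of 22 peaks (88.9 and 68.2%) lay wholly upstream, against 39.7 and 37.3%. At Rpl18 and Rpl5 that site lay 2655 and 1619 bp inside the gene. With the nearest annotated TSS of the gene, the medians were −61 and −178.5 bp, against −10 and −8 bp.

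Start sites of other protein-coding genes lay in the windows of 4 of the 6 genes bound in both replicates. The window held the TSS of another protein-coding gene for 17 of the 86 genes, and 6 of these were bound in either replicate and 4 in both (Rpl15, Rps2, Rps25 and Rps27a). For Rps10, counted among the 6, the only other gene was RPS10-NUDT3 on the same strand. Its name includes Rps10, so it may not be a separate neighbour. Of the 69 without such a neighbour, 19 were bound in either replicate and 2, Rps13 and Rps27l, in both. The shares bound in both replicates were 23.5% with a neighbour (9.56 to 47.3%) and 2.90% without (0.799 to 9.97%), against 23.0 and 10.3% of all protein-coding genes split the same way. The shares bound in either were 35.3 and 27.5%, against 55.1 and 30.6%. To which gene a shared peak belongs cannot be told apart. Such neighbours did not always come with a peak: Rpl12, Rpl35, Rpl35a, Rpl36al, Rpl4, Rpl7a, Rpl9, Rps18, Rps24, Rps27 and Rps28 had another coding TSS in the window and were bound in neither replicate.

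The 61 genes bound in neither replicate comprised 35 of the large subunit, 20 of the small subunit and 6 paralogs and other genes. Among them were the P-stalk genes Rplp0, Rplp1 and Rplp2, whose proteins recruit elongation factors, Rpl3, a protein of the peptidyl transferase centre, Rpl11, Rpsa, the laminin receptor, and Rps3, a protein at the mRNA entry. The nearest peak lay at a median of 31734 bp from the TSS in replicate 1 and 17964 bp in replicate 2. Peaks lay within 5 kb of 4 of these genes in replicate 1 and 8 in replicate 2, and within 10 kb of 10 and 24. The nearest was at Rpl36, 1085 and 1123 bp from the TSS. The farthest were 493593 bp in replicate 1, at the X-linked Rps4x, and 288318 bp in replicate 2, at Rps24. The same distances were not computed for other genes without a promoter peak, so they have no background here. Within a gene but outside the promoter windows, a peak was found at Rpl11 alone, with a score of 15 in replicate 2. A gene without a peak has no region past a q-value of 0.05, and at unknown depth this does not show that SRCAP is absent.

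**Figure D5:**
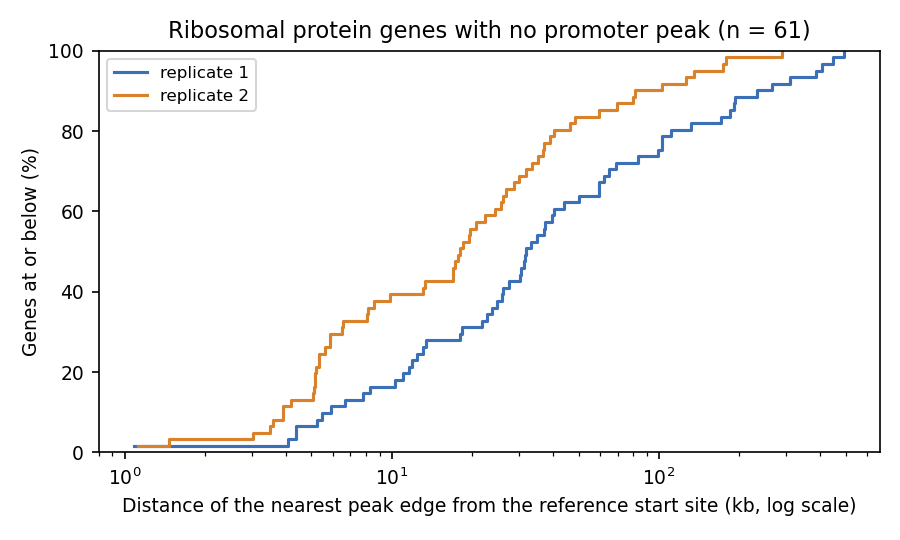
Cumulative percentage of the 61 genes with no promoter peak, by the distance in kb (log scale) from the reference TSS to the edge of the nearest peak in each replicate. Both lines start at about 1 kb (Rpl36, 1085 and 1123 bp), and the replicate 2 line, from the longer list, lies mostly at shorter distances.

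Promoter sequence was examined from 250 bases upstream to 50 bases downstream of each reference TSS. The ETS core CGGAAG, on either strand, was in 50 of the 86 promoters (58.1%), against 20.6% of all 21938 promoters of this length. It was in 64.0% of the 25 bound in either replicate and in 55.7% of the 61 bound in neither, and for all protein-coding genes in 29.8% and 15.9%. The share in ribosomal protein promoters was thus high whether or not a peak was called. The YY1 core AAGATGG was in 12.8% against 6.35% of all promoters, the SP1 box GGGCGG in 52.3% against 45.3%, the NF-Y box CCAAT in 30.2% against 38.6%, TATAAA in 11.6% against 12.6% and the E-box CACGTG in 10.5% against 7.72%. No searched motif contains another. G or C made up a median of 55.7% of ribosomal protein promoters and 56.0% of all promoters, whereas the median CpG number was 19.5 against 12. Bound and unbound ribosomal protein promoters had medians of 21 and 19 CpG, while bound and unbound promoters of all genes had 20 and 6.

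A run of at least 8 C or T that overlaps the bases from −5 to 5 around the TSS, as in a TOP start, was in 24.4% of ribosomal protein promoters against 9.18% of all. It was in 5 of the 25 genes bound in either replicate and 16 of the 61 unbound genes (26.2%). When the run could lie anywhere up to the end of the 300-base window, a choice made after the data were seen, the shares were 51.2% and 21.8%. The reference TSS itself was a C in 26 of the 86 genes (30.2%), against 17.5% of all promoters. In 71 of the 86 genes the start site of most transcripts lay downstream of the reference TSS. These shares, like the peak positions above, thus describe annotated starts, and how many of the genes have a TOP start was not tested.

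Sequence at the reference TSS of bound and unbound genes is shown, as 40 bases upstream and 20 bases from that TSS on (GRCm38, along the gene). At Rpl11 and Rpl13 the start site of most transcripts lies 687 and 303 bp downstream of the reference TSS, so their runs are at outlying starts. Capitals mark matches on either strand to the ETS core, the SP1 box or the NF-Y box spelled out above.
Rps13, bound in both (chr7:116334176-116334235, minus strand): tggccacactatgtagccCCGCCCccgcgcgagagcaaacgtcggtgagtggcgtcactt
Rpl15, bound in both (chr14:18271048-18271107, minus strand): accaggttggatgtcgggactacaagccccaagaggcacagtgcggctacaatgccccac
Rpl11, bound in neither (chr4:136053374-136053433, minus strand): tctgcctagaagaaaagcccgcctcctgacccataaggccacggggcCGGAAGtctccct
Rpl13, bound in neither (chr8:123102310-123102369, plus strand): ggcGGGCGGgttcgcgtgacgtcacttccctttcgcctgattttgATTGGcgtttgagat
Rpl13a, bound in neither (chr7:45128742-45128801, minus strand): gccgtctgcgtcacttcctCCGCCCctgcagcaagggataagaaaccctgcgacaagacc
The GC box appears in Rps13, which was bound, and in Rpl13 and Rpl13a, which were not. It is also in this window of Rps25, which was bound in both replicates and is not printed. The ETS core appears in this window of Rpl11, which was not bound. With so few genes, and with Rpl11 and Rpl13 shown at outlying starts, no difference between bound and unbound genes is read from these runs.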

How the data were processed

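Peak lists of 2 SRCAP-YPet CUT&Tag samples were analysed, grouped by their labels. Per the labels, the submitters' processing notes name STAR, Picard and MACS2 with the builds mm10 and dm6. The methods of the study describe unique alignments, duplicate removal, Drosophila spike-in scaling and blacklist exclusion; 10000 Drosophila nuclei per sample are given in the labels. The reporting summary of the study lists, in its ChIP-seq section, a MACS2 call with an input control. How far these steps and that control hold for the deposited CUT&Tag lists is not given in the sources used here. For each sample the authors deposited peak coordinates and a score, read as 10 times −log10 q and used to rank peaks. No read numbers accompany the lists, so depth is unknown, and filters at mapping and calling limit which promoters can carry a peak. Labels give 37-nt reads, and the methods a longer read length.

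Genes and TSSs came from GENCODE M21 and sequence from GRCm38, the same assembly as mm10, and no peak passed a chromosome end. The reference TSS was that of the best APPRIS transcript, then the protein-coding one with the best support level, then the most upstream. Shares carry 95% Wilson intervals, which cover counting error only. No test was run, since the design has 1 group and members are not replicates. Members and lists were chosen with earlier results of these data known. Full values were planned for the best-ranked genes bound in both replicates of each subunit, any whose replicate peaks did not overlap, and range extremes, and names alone for the rest. Values of genes bound in 1 replicate, and the sequences of 3 shared intervals, were added after the values were seen. Start sequences were planned for 3 genes per class, omitting those with more than 30 UTR bases. The run of Rps25, at an outlying start, is not printed. Those of Rpl11 and Rpl13 are printed, although their reference TSSs also lie far from the site of most transcripts. The overlap code was tested on simulated data. Analyses ran in Python 3.11.15 with numba 0.67.0, numpy 2.4.6, matplotlib 3.10.9, pandas 2.3.3 and scipy 1.17.1. Values of 2 genes are not reported here, although both stay in the counts.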

Additional observations from a re-analysis of the deposited data

How the results depend on the processing

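Genes counted as bound in replicate 1, replicate 2 and both replicates, and in both for the large and the small subunit, numbered 9, 22, 6, 1 and 4. When a peak had to contain a TSS they numbered 4, 12, 1, 0 and 1 (all genes: 9.73, 20.6 and 6.97%). With a score of at least 50 they numbered 2, 8, 1, 0 and 1 (all genes: 4.21, 13.1 and 2.99%). Without genes that share the window with another coding gene, 69 genes were left. Of these, replicate 1 had 4, both had 2, and the subunits 0 and 1. The share in both was 2.90%, against 10.3% of all protein-coding genes without such a neighbour, and the share of all genes in replicate 1 was not computed for this setting. With replicate 2 cut to the length of replicate 1, replicate 2 had 12. Leaving out a replicate gave 9 to 22 bound genes, 3 to 9 of the large and 5 to 10 of the small subunit. The narrower window, coding transcripts and peak midpoints left the 5 counts as they were. The reference TSS alone gave 8, 21, 5, 1 and 3 (all genes: 13.8, 26.9 and 10.6%), and canonical genes gave 8, 19, 5, 1 and 4. Shares of ribosomal protein genes stayed below those of all genes in each of the 7 alternatives for which both were computed in each replicate.

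The mean of the median midpoints, −153 bp, was −120 bp with the nearest TSS, −103 bp for the genes bound in both and −290.5 bp with the start site of most transcripts, and −172 to −134.5 bp leaving out a replicate. The mean share of peaks covering the TSS, 39.4%, was 49.5% with the nearest TSS and 13.6% with the start site of most transcripts. The median width, 352 bp, was 395 bp for peaks that contain a TSS. The mean stayed negative in these alternatives, but for the genes bound in both replicates the SD of 124 bp exceeded it. No paired analysis was possible because the 2 samples form a single group. Depth limits what an absent peak shows.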

Other observations

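Pseudogenes of ribosomal protein genes, many of them retrocopies without the original promoter, were counted with the same window but at 1 annotated TSS each. Of 294 annotated pseudogenes with -ps symbols, 3 had a peak in the same window in replicate 1, 6 in replicate 2 and 2 in both (1.02, 2.04 and 0.680%). Of 13229 other annotated pseudogenes, the shares were 0.733, 1.41 and 0.416%. These were chosen only as lacking such a symbol, so they can include ribosomal protein pseudogenes under other names.

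Such copies can make reads of the parent gene ambiguous. In the promoter windows around the reference TSS, a median of 94.6% of 37-base words occurred once in the genome, and the share was at least 90% in 65 of the 86 genes. It was under 80% in 8 genes, with the lowest value, 66.1%, at Rpl37a, which was bound in replicate 2. The median was 94.8% for genes bound in either replicate and 94.6% for genes bound in neither. Of the 8 genes under 80%, 5 were among the 25 bound genes and 3 among the 61 unbound genes, and at least 90% was reached by 17 and 48 of them. The words follow the read length in the labels; the methods of the study give a longer one. Read pairs span more than 37 bases, so this understates how many can be placed. The part of sequence uniqueness in the calls was not tested.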
